A study of Sus scrofa with 4 samples.

Results

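The regions described here are peaks of histone H4 lysine 12 lactylation (H4K12la) that lay at an end of a noncoding RNA gene in sow liver. They were chosen by position alone: a peak counted when its summit, the base of highest signal, was within 1 kb of either end of a gene that the RefSeq annotation of the pig genome (Sscrofa11.1) lists as a noncoding RNA on chromosomes 1 to 18, and was not within 1 kb of an end of a protein-coding gene. Of 33952 peaks on these chromosomes, 428 met the rule, 346 of 28222 in the high bile acid library and 82 of 5730 in the low bile acid library. A further 146 and 35 peaks at noncoding ends also lay at a coding end and were left out.

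The study profiled liver chromatin of female pigs in late gestation whose bile acids were high or low (normal); its title refers to the transcription factor c-JUN and to intrahepatic cholestasis, in which bile flow is impaired. Each group had 1 library immunoprecipitated with an antibody against H4K12la and 1 input library, 4 samples in all, and the sources used here do not say how many animals stand behind a library. The labels give liver as the tissue and hepatocytes as the cell type. With 1 library per group there is no replicate check and no test between the groups. Intervals are exact 95% intervals, Poisson for fragments and densities and Clopper-Pearson for shares. They cover counting error only, since amplified reads without molecular identifiers are not independent molecules.

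Lysine lactylation is formed from lactate, the product of glycolysis, and on histones it has been described at promoters and enhancers of active genes. Long noncoding RNAs (lncRNAs) are mostly made by RNA polymerase II, as are the precursors from which the short microRNAs (miRNAs) are cut, whereas transfer RNAs (tRNAs), the adaptors of translation, are made by RNA polymerase III. An lncRNA gene often starts beside or within a coding gene, so an end of one can also lie in the regulatory region of the other.

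H4K12la peaks as called lay more densely at noncoding ends than elsewhere in the genome, and less densely than at coding ends. Most of these calls are weak. Only 602 of 28222 high and 12 of 5730 low peaks had a q-value (a p-value adjusted for all positions of the library) under 0.05. Of these, 5 (high) and 0 (low) lay at noncoding ends, too few to show the same order, so the densities below describe all calls. In the high library the windows around noncoding ends held 17.98 summits per Mb (95% interval 16.1 to 20.0), the windows around coding ends held 41.4 (39.9 to 42.9), and the genome outside both kinds of window held 11.5 (11.4 to 11.7). In the low library the same 3 values were 4.26 (3.39 to 5.29), 7.40 (6.77 to 8.08) and 2.36 (2.30 to 2.43). The order was the same in both libraries, and no 2 of the 3 intervals overlapped within a library. Noncoding ends thus stood at 1.56 times the density of the genome outside the windows in the high library and at 1.80 times in the low library, against 3.59 and 3.13 times at coding ends. The high list was longer everywhere: the density in the high list over that in the low list was 4.22 at noncoding ends, 5.59 at coding ends and 4.87 outside the windows.

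Distance from coding genes was set beside these values, because peaks were also denser within and beside coding genes. Of the 346 member peaks of the high list, 123 (35.5%, 30.5 to 40.8%) had their summit inside a coding gene, 60 lay under 10 kb from one, 90 at 10 to 50 kb and 73 (21.1%) at over 50 kb. In the low list the same 4 counts were 26, 16, 23 and 17. Noncoding ends inside coding genes held 25.7 summits per Mb (21.4 to 30.7) in the high list, against 13.7 (13.50 to 13.95) elsewhere inside coding genes, and 5.44 (3.55 to 7.97) against 2.77 (2.67 to 2.87) in the low list. Noncoding ends over 50 kb from any coding gene held 12.8 (10.0 to 16.0) against 7.17 (6.98 to 7.38) in the high list, and 2.97 (1.73 to 4.76) against 1.52 (1.43 to 1.62) in the low list. At 10 to 50 kb the values were 17.1 (13.8 to 21.1) against 11.96 (11.6 to 12.4), and 4.38 (2.78 to 6.57) against 2.36 (2.18 to 2.54). Under 10 kb they were 17.2 (13.1 to 22.1) against 14.8 (14.2 to 15.4), and 4.58 (2.62 to 7.44) against 3.32 (3.05 to 3.61), and there the intervals overlapped in both lists. The noncoding windows were therefore the denser ones at each distance, beyond counting error in 3 of the 4 classes.

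**Figure D1:**
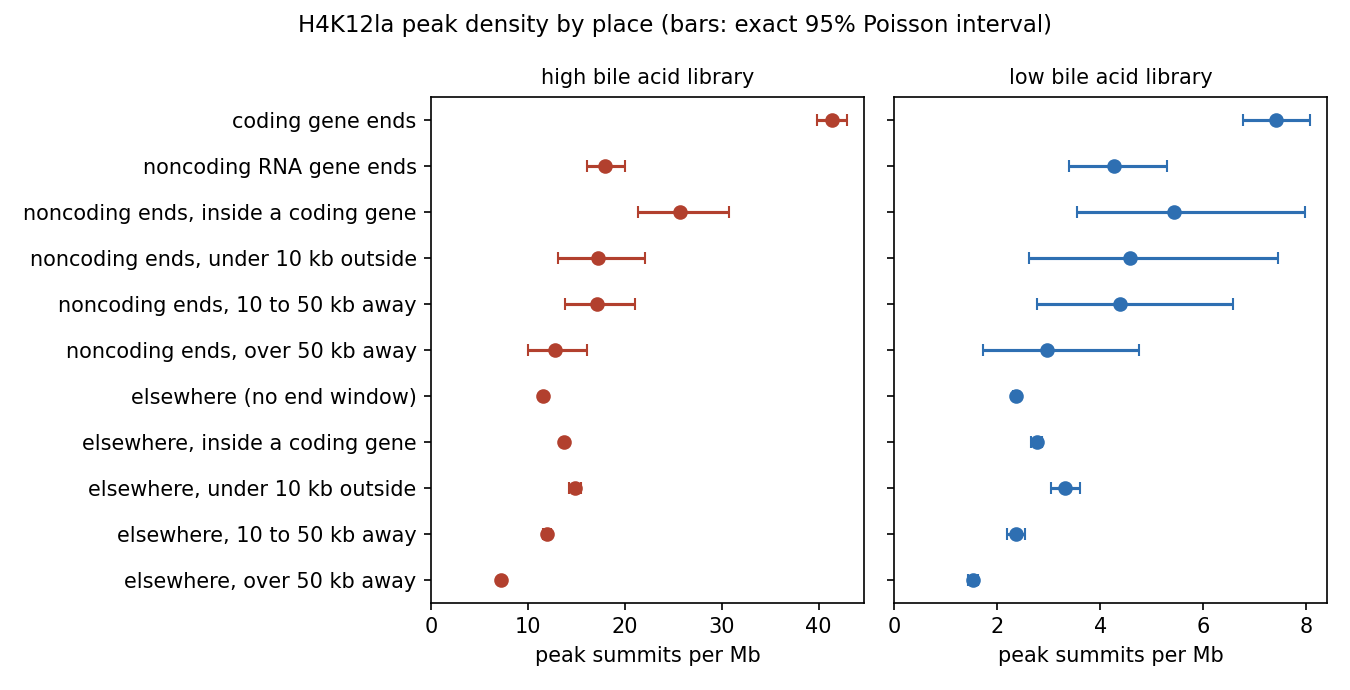
Density of H4K12la peak summits (per Mb, x axis) by place in the genome (y axis) in the high (left) and low (right) bile acid library; points are densities and bars are exact 95% Poisson intervals, and the 2 x axes differ in scale. Coding ends stand highest at 41.4 and 7.40 per Mb, noncoding ends lie at 17.98 and 4.26, and noncoding ends inside a coding gene lie above the remaining sequence inside coding genes in both libraries.

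Along lncRNA genes the peaks were denser at the ends than in the body. The ends held 17.8 summits per Mb (15.9 to 19.9) and the gene bodies beyond 1 kb of an end held 9.49 (9.06 to 9.92) in the high list, a ratio of 1.88. In the low list the values were 4.32 (3.42 to 5.39) and 2.24 (2.04 to 2.46), a ratio of 1.93. The density in lncRNA bodies was below that of the genome outside the windows in the high list and overlapped it in the low list. However, 181 of the 198 Mb of body lay outside coding genes, where peaks were sparser. Outside coding genes, bodies held 9.15 (8.72 to 9.61) and the genome outside the windows 9.49 (9.32 to 9.67) in the high list. These intervals overlapped, as they did inside coding genes. Ends of all noncoding classes outside coding genes held 15.4 (13.5 to 17.6) in the high list, still above the bodies.

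Counted by gene, 410 of 5950 noncoding genes had a member peak, 326 in the high list only, 68 in the low list only and 16 in both. With peaks shared with a coding end included, 478 noncoding genes (8.03%) had a high end peak and 119 (2.00%) a low one. Over all 26902 annotated genes these shares were 13.0% and 2.56%, and over the 18722 coding genes it was 15.6% and 2.96%. Noncoding genes thus stood below the share over all genes in both lists, with intervals of 7.36 to 8.75% (high) and 1.66 to 2.39% (low). These shares do not allow for the shorter window around small genes or for the distance to other genes.

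By member peak alone, the shares over all noncoding genes were 5.75% (high) and 1.41% (low). By class, 316 of 5206 lncRNA genes (6.07%) had a high member peak and 79 (1.52%) a low one. For miRNA genes the counts were 10 of 270 (3.70%) and 4 (1.48%), and for tRNA genes 12 of 440 (2.73%) and 1 (0.227%). Of 30 genes that RefSeq lists as miscellaneous RNA, 4 had a high member peak and 0 a low one, which allows a share of up to 11.6%. The single signal recognition particle RNA gene and the 3 genes of other classes had none. The annotation used here had no gene of the small nucleolar or small nuclear classes. Per Mb of window, miRNA ends held 21.4 summits (10.2 to 39.3) and tRNA ends 16.5 (8.23 to 29.5) in the high list, so neither class could be told from lncRNA ends at this depth.

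Member peaks were low and narrow, as were those of the lists as a whole. The fold enrichment of each peak over its local background, its p-value and its q-value are the values of the authors' peak caller, and q is the p-value adjusted for all positions of that library. The number of immunoprecipitated fragments at the summit was recovered from the fold and the p-value. In the high list the median member peak had a fold of 2.86 (1.91 to 5.11), 9 fragments (6 to 22) and a width of 353.5 bp. Peaks at coding ends had medians of 2.94, 9 and 381 bp, and all peaks had a median fold of 2.90. In the low list the medians were 2.98 (2.31 to 4.15), 10 fragments (7 to 16) and 322 bp for members, with a median fold of 2.97 at coding ends and 2.98 over all peaks. The median fold of member peaks was thus close to that of all called peaks in either list.

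Calls with a small q were a lower share at noncoding than at coding ends in the high list. A q under 0.05 was given to 5 of 346 member peaks (1.45%, 0.471 to 3.34%), to 4.14% (3.43 to 4.94%) of peaks at coding ends and to 2.13% of all peaks. A fold of 4 or more was reached by 9 member peaks (2.60%, 1.20 to 4.88%), by 4.92% (4.15 to 5.79%) at coding ends and by 3.14% of all peaks, so that these intervals overlapped. In the low list no member peak of 82 had a q under 0.05, nor did any of the 502 peaks at coding ends, and the share over all peaks was 0.209%. The smallest q of a low member was 0.598. Of the low members 1 reached a fold of 4 (1.22%), against 1.38% of all low peaks. Most member peaks of either list thus had a small unadjusted p-value but a q above 0.05.

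**Figure D2:**
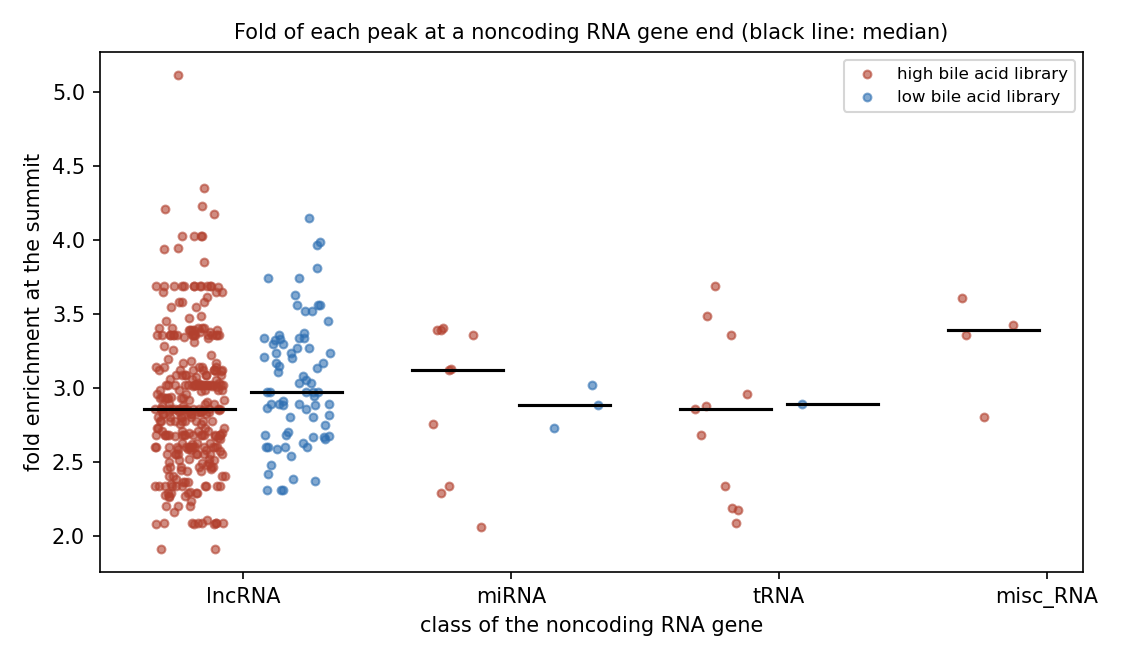
Fold enrichment at the summit (y axis) of each member peak, by class of the noncoding RNA gene (x axis), with high bile acid peaks in red, low bile acid peaks in blue and black lines at the medians. The lncRNA medians lie at 2.86 (high, 321 peaks) and 2.98 (low, 78 peaks), and the points of the other classes lie within the lncRNA range.

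The 5 peaks with a q under 0.05 were all at lncRNA genes with provisional names. The highest, at LOC110256554, covered chromosome 13 from 204313972 to 204314446, 345 bp inside the gene. It had a fold of 5.11 (q = 0.00089) from 15 fragments (8.40 to 24.7) over 2.13 expected, and the nearest named coding gene, 22083 bp away, was DSCAM, a neuronal cell adhesion molecule. Over the same expected number the caller would have accepted 7 fragments in the low library, and the interval lay wholly above that. It was the only high member of which this held (0.289%, against 0.315% of all high peaks).

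The other 4 lay beside or within genes of known function. LOC106509287 had a fold of 4.35 (q = 0.031) from 12 fragments on chromosome 2 (2376091 to 2376737), and its summit was 1074 bp from DHCR7, the last enzyme of one route of cholesterol synthesis. LOC102160367 on chromosome 9 had a fold of 4.23 (q = 0.0316) from 12 fragments at 9432020 to 9432462, 1736 bp from SLCO2B1, an organic anion uptake transporter of the hepatocyte. A second high peak at its other end, at 9450267 to 9450643 within SLCO2B1, had a fold of 3.17 from 9 fragments. LOC102166560 had a fold of 4.21 (q = 0.0306) from 13 fragments on chromosome 15 (64772395 to 64772805), inside ACVR1, a type I receptor of bone morphogenetic protein signalling. LOC110260147 had a fold of 4.18 (q = 0.031) from 13 fragments on chromosome 3 (118016539 to 118017117), 5018 bp from SDC1, the cell surface proteoglycan syndecan-1. None of these 5 genes had a member peak in the low list. Of all 342 noncoding genes with a high member peak, 4.68% had one, so its absence at 5 genes says nothing particular about them.

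Another 4 high members shared a fold of 4.03 (q = 0.0735), each from 11 fragments over 1.98 expected. They were at EIF3B, at LOC106505102 (5759 bp from KIF26B, a kinesin family member), at LOC110255669 (inside UBQLN1, a ubiquilin) and at LOC102160389 (69487 bp from MFHAS1). The value of 1.98 was the lowest expected number of the high library, and 67 of the 346 member peaks stood on it, so that peaks with the same fragment count there have the same fold.

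The highest low members stood on similar fragment numbers and larger q. LOC102157619 on chromosome 1 (147959674 to 147959987) had a fold of 4.15 (q = 0.598) from 13 fragments (6.92 to 22.2) over 2.00 expected, 27819 bp from the zinc finger gene ZNF516. LOC110255884 had a fold of 3.99 from 13 fragments within NTN1, the guidance cue netrin-1, with its summit 33 bp inside the end of the lncRNA gene. LOC110257167, within LIMS2, a focal adhesion protein, had a fold of 3.96 from 14 fragments. LOC102159656 within CRTAC1 had 3.81 from 12, LOC102165507 at 23156 bp from POU5F1 and LOC100523870 at 15391 bp from ANXA2R had 3.74 from 12 each, and LOC110255725 at 41659 bp from AKR1E2 had 3.63 from 11. LOC106507633 and LOC110255293 had 3.56 from 11 each.

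For 7 of the 82 low members (8.54%, against 7.09% of all low peaks) the whole fragment interval was no lower than the smallest number that would have been called in the high library over the same expected number. They were the 6 low members of highest fold and LOC106505566 within SMPD4, a neutral sphingomyelinase, with a fold of 3.52 from 16 fragments over 3.29 expected. LOC110257167 was also called in the high list, there over 3.64 expected against 2.36 in the low list. The limit takes the expected number of the peak's own library, which can differ from that of the other library at the same place. Passing it is therefore not a tested difference between the libraries. For all other members a call in 1 list only, where there was one, is a difference of calls at the cutoff, and a like number of fragments in the other library could have gone uncalled.

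Peaks of the 2 lists overlapped by at least 1 bp at 9 places. That is 2.60% of the high members (1.20 to 4.88%) and 10.98% of the low members (5.14 to 19.8%), against 0.730% and 3.61% of all peaks and 1.96% and 10.8% of peaks at coding ends. In the full lists noncoding ends thus had overlaps about as often as coding ends, and the interval of each share lay above the share over all peaks. With the high list cut to the length of the low list, 1 of 82 low members (1.22%) overlapped. The shares of coding ends and of all peaks are not given at that length. All 9 overlaps of the full lists were at lncRNA genes, 5 of them with the summits inside a coding gene. The summits of a pair were 40 to 304 bp apart.

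The overlap at LOC102159476 lay inside HNF4A, the nuclear receptor that directs much of the hepatocyte gene programme. The high peak on chromosome 17 (46815606 to 46815924) had a fold of 3.12 from 10 fragments over 2.52 expected. The low peak (46815787 to 46816090) had a fold of 2.87 from 10 fragments over 2.42. A second high peak 379 bp beyond the same end of the lncRNA gene had a fold of 3.11 from 9 fragments. The 2 overlapping peaks thus had the same number of fragments, at summits 134 bp apart, and none of the 3 peaks had a q under 0.05.

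Another pair lay 1454 bp from FOXO1, a transcription factor that insulin signalling holds out of the nucleus and that drives gluconeogenic genes in liver. At LOC102160118 on chromosome 11 the high peak (15411319 to 15411712) had a fold of 2.08 from 9 fragments over 3.798 expected, and the low peak (15411365 to 15411857) had 2.31 from 12 fragments over 4. At LOC102163670, inside FUBP3, the folds were 3.36 (high) and 3.21 (low), from 9 and 11 fragments. At LOC110257167, inside LIMS2, the high peak had a fold of 2.59 from 11 fragments and the low peak 3.96 from 14, the widest gap of the 9 pairs.

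At the other 5 places, 4 of which are given here, the low fold was also the higher one. The high and low folds were 2.45 and 2.75 at LOC102157703 inside NXN, and 2.45 and 3.34 at LOC100623931 inside CFAP43. They were 2.29 and 3.33 at LOC110259843, whose window also holds an end of the gene model ZDHHC4, and 2.34 and 2.82 at LOC110255441, 2742 bp from BCL9L, a co-activator of Wnt signalling. In all, the low fold was higher in 7 of 9 pairs, with medians of 2.45 (high) and 2.98 (low). Fragments ran from 8 to 11 in the high library and from 9 to 14 in the low library. Expected numbers differed within the pairs and the depth of the 2 libraries was not compared, so the folds are given side by side without a test.

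**Figure D3:**
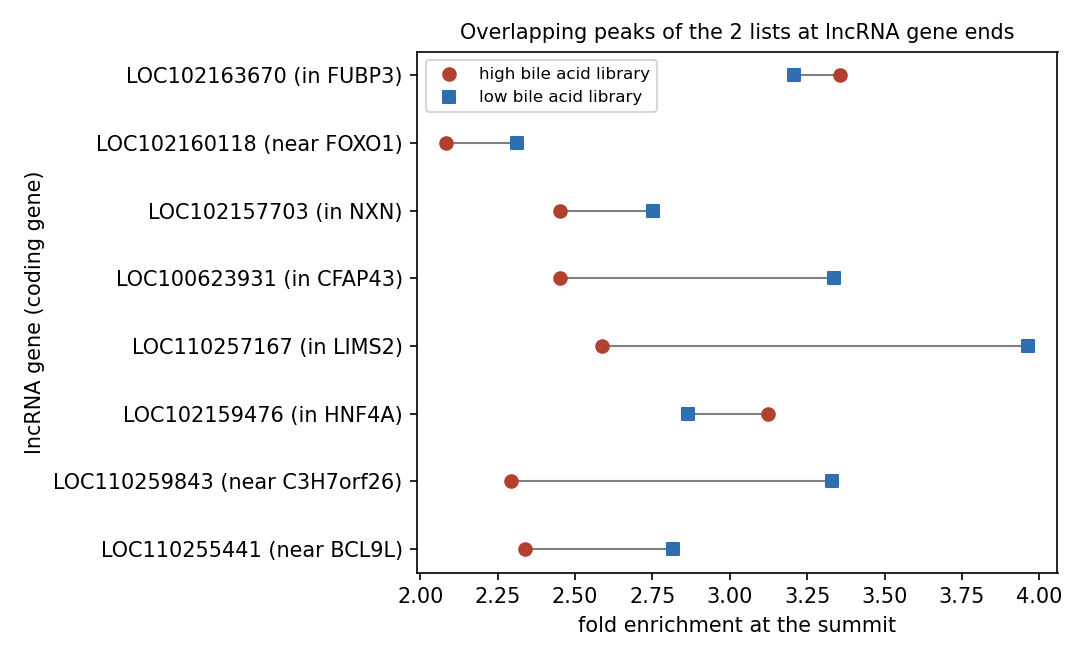
Fold enrichment at the summit (x axis) of 8 of the 9 pairs of overlapping peaks, 1 row per lncRNA gene with the coding gene that holds it or lies nearest (y axis); red circles are the high and blue squares the low bile acid library. The low value is the higher one in 6 rows, and the high value is higher at LOC102163670 and LOC102159476.

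Counted by gene, 16 noncoding genes had member peaks in both lists, 4.68% of the 342 high genes and 19.05% of the 84 low genes. With peaks shared with a coding end included the number was 23 (0.387% of noncoding genes, 0.245 to 0.579%), against 0.572% of all genes and 0.684% of coding genes. Of the 16, 10 owed this to the overlapping pairs. The other 6 had their peaks at separate places: EIF3B (folds of 4.03 in the high and 2.89 in the low list), the tRNA gene TRNAI-UAU on chromosome 3 (2.34 and 2.89), LOC102158191 (2.92 and 3.30), LOC110257422 (2.86 and 2.80), LOC110260765 (2.84 and 2.48) and LOC106505729 (2.98 and 3.09 in the high list, 3.33 in the low list).

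At least 2 member peaks in the high list were found at 12 of 5950 noncoding genes, and in the low list at 1. Over all 26902 genes, 269 (1.00%) had 2 or more high end peaks. That share also counts peaks at coding ends, which member peaks leave out, so it is not the same measure. In 7 of the 12, and in the 1 of the low list, a peak stood at either coordinate end. After LOC102160367 at SLCO2B1, the highest folds were at LOC110255944, 12686 bp from BAHCC1 (3.69 and 2.73), and at LOC106506002 on chromosome 14. LOC106506002 had a fold of 3.69 inside one end, and the peak at its other end, 3.55, lay nearer to the adjacent LOC110256752. LOC110259224 had peaks of 2.86 and 2.96 at its 2 ends inside KCNQ1, a potassium channel gene whose human and mouse locus is imprinted under a noncoding RNA. LOC110260943 had 2.92 within B3GNT9 and 2.94 within TRADD, an adaptor of tumour necrosis factor receptor signalling. LOC106508298 had 3.09 and 2.21 inside ISPD. In the low list LOC102165879 had 3.30 near and 2.80 inside DNM1.

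The miRNA members of the high list were 10 peaks at 10 genes, with folds from 2.06 to 3.41 and a median of 3.12. MIR1271 on chromosome 2 (81502823 to 81502900) had the highest, 3.41 from 11 fragments, with the summit 3 bp inside the gene, in ARL10. MIRLET7I, of the let-7 family that restrains growth genes, had 3.39 from 10 fragments at 686 bp. MIR451, known from red blood cell formation, had 3.39 from 10 fragments at 891 bp, inside ERAL1. MIR9798 had 3.36 from 9 fragments. MIR499, which in heart and slow muscle is made from an intron of MYH7B, had 3.13 from 14 fragments (7.65 to 23.5), 23 bp beyond its end and inside MYH7B.

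The other 5 had folds of 3.12 (MIR339-1), 2.75 (MIR345-1), 2.34 (MIR7134, inside TNRC6B, a gene of the silencing complex), 2.29 (MIR9811) and 2.06 (MIR935). None of the 10 had a peak in the low list. The low list had 3 peaks at 4 other miRNA genes. One stood 171 bp beyond MIR96 on chromosome 18 and within 1 kb of MIR183, 2 miRNAs of a cluster best known from sensory cells, with a fold of 3.02 from 11 fragments. MIR146B, of a family that dampens innate immune signalling, had 2.89 from 9 fragments with its summit inside the gene, and MIR9860 had 2.73 from 9. All of these had q values of at least 0.139 in the high list and of 1 in the low list. No miRNA gene was called in both lists (0 of 270, which allows a share of up to 1.36%). Over all noncoding genes the share called in both was 0.387%. Peaks within 1 kb of MIR769, MIR150-1, MIR219A, MIR574, MIR195 and MIR497 in the high list and of MIR320 in the low list lay at coding ends too and are not members.

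The tRNA members of the high list were 11 peaks with folds from 2.08 to 3.69. The highest was a peak 210 bp beyond TRNAK-CUU on chromosome 4 that also lay within 1 kb of TRNAH-GUG, with 3.69 from 10 fragments over 1.98 expected. TRNAN-GUU, in the same stretch of chromosome 4, had 3.36 from 9 fragments, and TRNAL-UAG on chromosome 7 had 3.48 from 10. Beside 2 TRNAQ-CUG genes, also on chromosome 4, the peaks had 22 fragments over 9.50 expected (2.19) and 17 over 7.28 (2.173). These were the highest fragment numbers of any high member, and their expected numbers were above the median of 2.28. tRNA genes occur in near-identical copies, and the sources used here do not say how reads that match several copies were placed, so the values in these clusters are uncertain.

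The remaining tRNA members had 2.96 and 2.68 at 2 TRNAE-UUC genes, 2.88 at TRNAH-GUG on chromosome 1, 2.86 at TRNAN-GUU on chromosome 11, 2.34 at TRNAI-UAU and 2.08 at TRNAT-UGU. No tRNA summit lay inside the gene itself. The single low member, 567 bp beyond TRNAI-UAU on chromosome 3, had 2.89 from 12 fragments over 3 expected. It stood on the other side of the gene from the high peak.

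The 4 miscellaneous RNA members, all in the high list, were LOC106508799 (3.61, 20569 bp from TAGAP), LOC106504851 (3.42), LOC100738033 (3.36) and LOC106506737 (2.80), from 8 to 11 fragments each. Over all classes, 376 of the 410 member genes had provisional LOC names, and a few lncRNA models carried the symbol of a coding gene. Such models were taken as all lncRNA, miscellaneous and other RNA genes without a LOC name, apart from MEG3. Their symbols were not checked one by one against coding genes. Of the 63 noncoding models named so, 8 had a high member peak (12.7%, 5.65 to 23.5%) and 2 a low one (3.17%). Over all noncoding genes these shares were 5.75% and 1.41%. The ends of these models held 46.2 summits per Mb (19.9 to 91.0) in the high list, from 8 summits. That interval holds the 41.4 of coding ends and also overlaps that of all noncoding ends (17.98, 16.1 to 20.0). EIF3B, named for a subunit of translation initiation factor 3, had the highest fold of them (4.03) and was called in both lists. EPB41L4A and ITGAX had 3.36, C1H18orf32 2.83, KRT7, the name of a bile duct keratin, 2.49, and EIF4B 2.08. RARG and ZDHHC4 lay within 1 kb of peaks that were nearer to another lncRNA gene. Whether these models are transcripts of coding loci cannot be told from the annotation used here.

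Within the window the summits of high members were spread nearly evenly. Those of low members were most frequent at 250 to 500 bp, but this rests on 26 of 82 peaks, and a difference between the lists was not tested. In the high list 22.3, 25.4, 25.7 and 26.6% of the 346 members fell in successive bins of 250 bp from the gene end, whereas at coding ends the shares were 24.2, 30.3, 25.1 and 20.4%. For the 82 low members the shares were 23.2, 31.7, 26.8 and 18.3%, with 24.1, 28.5, 26.7 and 20.7% at coding ends. The summit was inside the noncoding gene for 52.3% (46.9 to 57.7%) of high members and for 51.2% (39.9 to 62.4%) of low members. The end with the lower coordinate was the nearer one for 49.7% and 53.7%. The annotation used gives no strand, so starts and ends of transcription were not told apart. At the limit of the rule, the outermost members were LOC110257414 at 997 bp (3.14, high) and LOC110261014 at 997 bp (3.37, low), and the first peaks outside it were at LOC106505188 at 1008 bp (3.36, high) and LOC110262249 at 1005 bp (3.03, low).

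**Figure D4:**
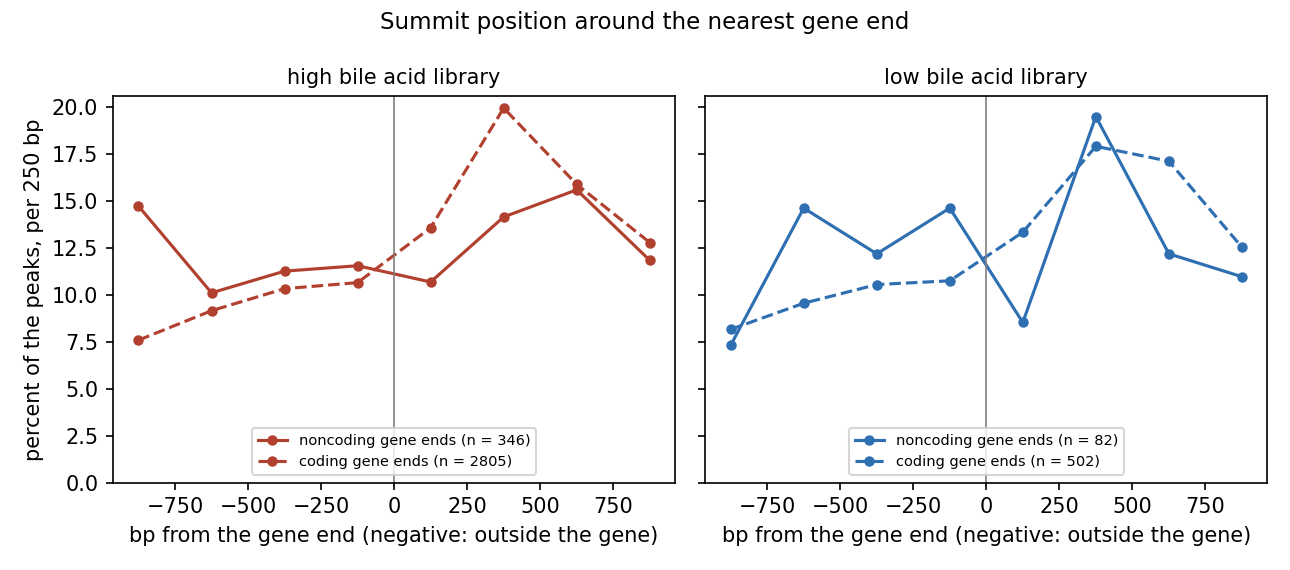
Position of the summit relative to the nearest gene end (x axis, bp, negative outside the gene), as percent of peaks in bins of 250 bp (y axis), for the high (left) and low (right) library; solid lines are noncoding and dashed lines coding gene ends. In the high library the coding line peaks inside the gene, while the 346 noncoding members are spread over all bins; the low noncoding line rests on 82 peaks.

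Coding genes that make or process noncoding RNA were looked up with the same 1 kb window. Of 90 such genes found, 17 (18.9%) had a high end peak and 2 (2.22%) a low one. The shares were 15.6% and 2.96% over all coding genes and 13.0% and 2.56% over all genes. None of the 90 had one in both lists, against 0.684% of all coding genes. Of 26 genes of RNA polymerase III and tRNA processing, 6 had a high peak, among them GTF3A, the transcription factor of 5S ribosomal RNA genes (4.03) and GTF3C1, a subunit of the factor that binds tRNA promoters (3.36). TSEN34 had 3.22, MAF1, the repressor of RNA polymerase III, 2.34, and POLR3G 2.08, and POLR3D had a low peak of 2.45. Of 21 genes of small nuclear RNA transcription and Integrator, 4 had a high peak, INTS11, its endonuclease, with 4.14 (q = 0.031), INTS3 and INTS8 with 3.36 and INTS7 with 3.02, and INTS12 had a low peak of 2.82. Of 17 genes of the nuclear exosome and lncRNA turnover, 5 had a high peak (EXOSC10 3.10, EXOSC3 2.98, EXOSC4 2.89, ZFC3H1 2.86 and XRN2 2.58). Of 16 miRNA processing genes 1, AGO1 (2.60), and of 10 small nucleolar RNP genes 1, NOP56 (2.86), had a high peak.

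The labelled cell type was checked against marker genes in the same way. Of 15 hepatocyte markers only TTR had an end peak, in the high list (2.21), and of 4 markers of cholangiocytes and 5 each of endothelium, Kupffer cells, stellate cells and lymphocytes only the endothelial CDH5 had one, also in the high list (3.69). Of all 39 counted markers, 2 thus had a high end peak and 0 a low one. Over all coding genes these shares were 15.6% (high) and 2.96% (low). Whether markers differ from other coding genes was not tested. With so few markers per cell type, a count of 0 or 1 does not show that hepatocyte genes lack the mark. A further cholangiocyte marker, KRT7, was not counted, because the annotation lists it as an lncRNA gene. KRT7 had a high member peak (2.49), given above. These calls do not tell the cell types apart, and the labelled cell type could not be checked from them.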

How the data were processed

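The deposited data were a list of narrow peaks for either immunoprecipitated library, with the inputs used as the caller's background. MACS2 2.1.0, Bowtie 1.1.2, Trimmomatic 0.33 and bcl2fastq 2.17 are named, per the submitters' processing notes. These name the builds hg38 and Sscrofa11.1, and positions were read as Sscrofa11.1, the pig build. The authors' lists give each peak a fold enrichment (a ratio over local background), a −log10 p-value and a −log10 q-value at the summit; the deposited score was not used. Peaks were called per library, and the largest p-value was 0.00989 in either list. MACS2 computes fold and p from fragment numbers, so both were solved for them: whole numbers within 0.002 came out for 99.9965% of high peaks (scale 1) and 100% of low peaks (scale 0.881). The recovery was tested on simulated data.

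Genes were those of the RefSeq table, which gives gene ends and class but neither strand nor exons. Pseudogenes and immunoglobulin segments were not counted as noncoding RNA. Densities are summits per Mb of merged windows. Named genes follow a rule: symbols other than LOC names, the 8 highest folds of each list, all overlapping peaks, genes called in both lists, genes with several peaks, the 3 highest of each class and the peaks at the 1 kb limit. A few results that the rule names are not reported here. The rule and all lists were chosen with earlier results of these data known. Motif shares and sequences were planned but left out, because no sequence was at hand. Groups were read from the sample titles. Alternatives were other windows, q under 0.05, fold of 4 or more, equal list length, other overlap rules, coding ends kept and, chosen after seeing the data, pseudogenes counted and coding symbols left out. Python 3.11.15, numpy 2.4.6, pandas 2.3.3, scipy 1.17.1 and matplotlib 3.10.9 were used.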

Additional observations from a re-analysis of the deposited data

How the results depend on the processing

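With windows of 500 bp, members were 0.666% of the high and 0.925% of the low list, at 185 and 55 genes, 8 of them in both. With 3 kb they were 2.68% and 2.91%, at 726 and 171 genes, 42 in both, and the share of machinery genes with a high peak was 34.4%. At q under 0.05, members were 0.831% of the high peaks (median fold 4.23, 0% overlapping, 5 genes) and 0% of the low peaks (0 genes), with 0 genes in both; no low median or overlap could be given. At a fold of 4 or more they were 1.02% of the high peaks, with median folds of 4.18 (high) and 4.15 (low), 0% overlapping in either list, 9 high genes and 1 low gene and 0 in both. With the high list cut to the length of the low list by smallest p, members were 1.099% of it, at 67 genes, with 1.22% of low members overlapping and 2 genes in both. Members were 1.39% of the high list by any overlap with the window, 1.74% (high) and 2.04% (low) with coding ends kept and 1.49% (high) with pseudogenes counted, an alternative chosen after seeing the data. The other 36 values of these and the remaining alternatives stayed within counting error or 1.5 times the reported value.

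No paired analysis was possible because there is only 1 immunoprecipitated library on either side. Depth limits the results: a median member rests on 9 (high) or 10 (low) fragments, and most have a q above 0.05. The share of low members that overlap a high peak depends on the length of the high list. No value here separates bile acid group from library, and whether RNA is made at these genes was not measured.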

Other observations

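Of 8 noncoding genes looked up as known from liver, a list drawn up after the peaks had been seen, 0 had an end peak in either list. With shares of 8.03% (high) and 2.00% (low) over all noncoding genes, a count of 0 of 8 says nothing particular about them, and their nearest summits are given as values. MIR122, the most abundant miRNA of hepatocytes, had its nearest summits at 4173 bp in the high list (fold 2.60, 8 fragments) and at 3944 bp in the low list (fold 3.18, 11 fragments). For MIR192 the nearest summits were at 5581 bp (fold 3.87, q = 0.0735, high) and 9973 bp (2.84, low), and the same 2 peaks were nearest to its neighbour MIR194A at 5380 and 10178 bp. For MIR194B, on another chromosome, they were at 62436 bp (high) and 18352 bp (low). MIR21 was 19524 bp, MIR885 15399 bp and MIR148A 25733 bp from the nearest high summit, and the imprinted lncRNA gene MEG3 was 9046 bp from one. The low summits nearest to MIR21, MIR885, MIR148A and MEG3 were farther away, at 69574 to 283994 bp.

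Across chromosomes, member peaks of the high list ran from 3.99 per 100 noncoding genes on chromosome 8 to 8.77 on chromosome 17. In the low list they ran from 0.442 on chromosome 4 to 4.09 on chromosome 17, which thus stood highest in both lists, with 15 high and 7 low members at 171 noncoding genes. Chromosome 17 also carries HNF4A and its overlapping pair. These are descriptions over chromosomes of unequal size and gene density, with no test. The number of peaks of all kinds on each chromosome was not set beside them. The order of chromosomes therefore cannot be read as particular to noncoding ends.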
